A study of Mus musculus with 39 samples.

Results

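Tumours given EPAT, a pair of antagonists that block EP2 and EP4 (receptors of prostaglandin E2), were compared after 5 days and after 2 days of treatment. The members were the libraries whose labels give EPAT as the only treatment, 5 from day 5 and 5 from day 2, which makes 10 of the 39 libraries of the series. All libraries came from bulk tumours of a Braf-mutated mouse melanoma grown in C57BL/6 mice. Dosing started 7 days after the cells were injected, and EPAT was given bidaily in 200 µl doses of 3 mg/mL (30 mpk). The EPAT day 5 and EPAT day 2 tumours had this drug pair and no antibody. The vehicle tumours, 5 from day 5 and 5 from day 2, received DMSO, PEG400 and water on the same schedule. They give the difference between the same days without the drug. Other tumours received anti-PD-1, an antibody against an inhibitory T cell receptor, alone (5 and 4 libraries on day 5 and day 2) or with EPAT (5 and 5 libraries). RNA was read near the 3′ ends of transcripts, so counts carry no term for transcript length, and levels are given in CPM, counts scaled to a common library size. Whether each library of a group is a separate mouse is not stated in the labels, and the p-values therefore describe the spread among the libraries, which may be technical.

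Prostaglandin E2 is a lipid made from arachidonic acid by cyclooxygenases and prostaglandin E synthases. Its receptors EP2 and EP4 raise cyclic AMP, which activates protein kinase A and the transcription factor CREB, and immediate early genes such as those of the Egr, Fos, Jun and Nr4a families are known targets of this and of growth factor signalling. In tumours, prostaglandin E2 is known for restraining T cells, natural killer cells and dendritic cells and for favouring suppressive myeloid cells.

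Some EPAT libraries stood apart before any comparison was made. Total counts were 8895991 to 14943145 in day 5 libraries and 11341709 to 14893401 in day 2 libraries. Gm42418, a gene that overlaps ribosomal RNA sequence, took 12.9% of the counts of day 5 replicate 3 and 10.7% of those of day 2 replicate 1, against at most 4.51% in the other 8. Transcripts of lung epithelium were present in 2 of 5 day 5 libraries and in 4 of 5 day 2 libraries. Over the series 23 libraries held them and 16 did not, and the split largely followed the S number at the end of the library names. Every EPAT library with them had a lower S number than every EPAT library without them. The labels do not say what the S number stands for, so handling of the libraries and tissue in the tumours cannot be told apart here. In the names of the libraries, day 5 replicate 1 carries the leading number 5 that the other day 2 tumours carry, and day 2 replicate 5 carries the leading number 6 of the other day 5 tumours. The groups follow the labelled time point, and list medians that moved by over 1.5 times or changed sign without these 2 libraries are given with both values. In Egr1, the gene with the smallest p, both stood with their labelled day (227 and 72.1 CPM). Because Egr1 was picked with these labels in use, its values do not check them. The extraction protocol in the labels names day 4 for tumour isolation, a day that is not among the labelled time points. The melanoma label could not be checked against pigment genes: over all 39 libraries Tyrp1 had 0 counts, Tyr 1, Mlana 7, Dct 12 and Pmel 134, and in the EPAT libraries only Pmel among these had any. Of the 12 melanocyte lineage genes, 3 were tested.

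No gene passed the test between EPAT day 5 and EPAT day 2. With edgeR's quasi-likelihood test, 0 of 15070 genes (0%) had a Benjamini-Hochberg adjusted p under 0.05, and the smallest adjusted p was 0.103. At an unadjusted p under 0.05 there were 1090 genes (7.23%), of which 554 (3.68%) were higher on day 5 and 536 (3.56%) lower. In 175 genes (1.16%) every day 5 library lay above every day 2 library, and in 152 genes (1.01%) every day 5 library lay below. The median log2 fold change of all tested genes, day 5 over day 2, was 0.01, 51.6% were above 0 and 48.4% below. In vehicle tumours 0 genes (0%) passed, 828 (5.49%) were at an unadjusted p under 0.05, and 49.9% were above 0 and 50.1% below. The tools differed widely. DESeq2 called 3 genes higher and 3 lower, and limma-trend and limma-voom without weights called 0. With sample quality weights limma-voom called 1168 (7.75%), 537 higher (3.56%) and 631 lower (4.19%). Krt5, among the genes that DESeq2 called lower, had a log2 fold change of -16.26 there, an extreme estimate that is not read as a measured change. All fold changes below are edgeR values ± SE, and none passed unless another tool is named.

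The gene with the smallest p in the whole table was Egr1, an immediate early transcription factor of the zinc finger class. Egr1 had 227, 291, 292, 212 and 186 CPM in EPAT day 5 tumours, against 84.0, 84.5, 85.0, 156 and 72.1 CPM in EPAT day 2 tumours. Every day 5 tumour lay above every day 2 tumour, and the highest day 2 tumour, replicate 4, lay well above the other 4. The log2 fold change was 1.33 ± 0.25 (adjusted p = 0.103). Without day 2 replicate 4 it was 1.57 with an adjusted p of 0.00852, the only gene that passed when a single library was left out. In vehicle tumours Egr1 averaged 97.7 ± 15.8 CPM on day 5 and 133 ± 22.9 CPM on day 2 (SD, n = 5 each), a log2 fold change of -0.45 ± 0.25. The EPAT difference exceeded the vehicle difference by 1.77 ± 0.35 (adjusted p = 0.220). Egr1 passed under DESeq2 in both tests, with adjusted p of 0.00293 for EPAT and 0.00860 for the difference from vehicle.

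Egr2, a close relative of Egr1, showed the same arrangement of samples. It had 15.9, 11.1, 15.2, 16.3 and 11.9 CPM in EPAT day 5 tumours, against 4.69, 5.06, 5.45, 8.16 and 6.44 CPM in EPAT day 2 tumours. The groups did not overlap. The log2 fold change was 1.24 ± 0.26 (adjusted p = 0.188), against -0.48 ± 0.26 in vehicle tumours, and the difference between them was 1.72 ± 0.36 (adjusted p = 0.242). Under DESeq2 Egr2 passed in both tests, with adjusted p of 0.0117 for EPAT and 0.0151 for the difference from vehicle. Junb, a subunit of the AP-1 transcription factor, had 233, 228, 285, 198 and 206 CPM on day 5 and 138, 130, 108, 180 and 133 CPM on day 2, also without overlap, at 0.74 ± 0.19. In vehicle tumours the Junb difference was 0.17 ± 0.19.

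**Figure D1:**
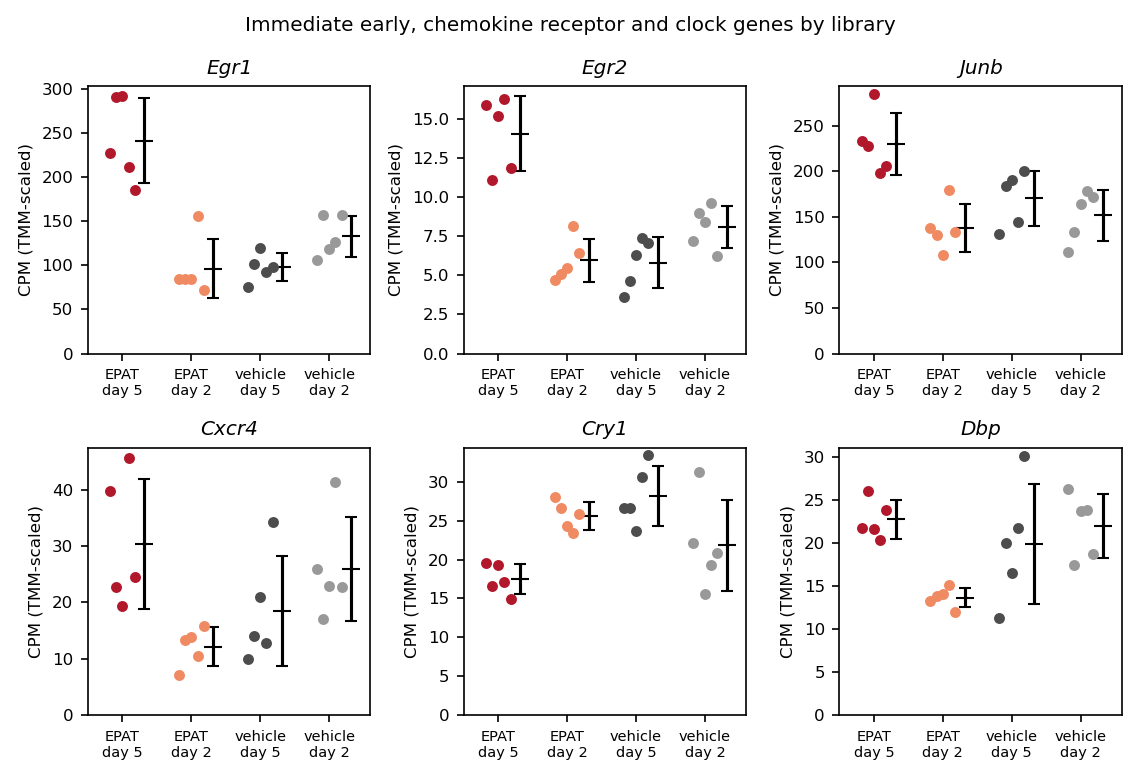
Each point is a library and gives CPM after TMM scaling on the vertical axis, for EPAT day 5, EPAT day 2, vehicle day 5 and vehicle day 2 tumours; the bars beside the points are the mean ± SD of 5 libraries. Egr1, Egr2, Junb, Cxcr4 and Dbp lay higher in all EPAT day 5 than in all EPAT day 2 libraries and Cry1 lay lower in all of them, and no such separation was seen between the vehicle days.

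Over the list of cyclic AMP, CREB and immediate early genes, 18 of 23 had a fold change above 0, with a median of 0.55 against 0.01 for all genes. At an unadjusted p under 0.05, 9 were higher and 0 lower, against 3.68% and 3.56% of all genes. In 8 of the 23 the groups did not overlap, all with higher day 5 values, against 1.16% of all genes. Apart from Egr1, Egr2 and Junb these were Ier3, Dusp1, Nr4a1, Pde4b and Rgs2, which are named here after their values were seen. Nr4a1, an orphan nuclear receptor induced within minutes of stimulation in many cells, had 108, 92.9, 114, 60.3 and 58.4 CPM on day 5, against 8.47, 34, 27.3, 46.3 and 41.3 CPM on day 2 (1.46 ± 0.54). Its lowest day 2 value came from replicate 1. Dusp1, a phosphatase that switches off MAP kinases, had 126, 120, 200, 107 and 96.5 CPM on day 5 and 49.0, 70.4, 90.6, 61.6 and 66.8 CPM on day 2 (0.94 ± 0.33). Pde4b, which degrades cyclic AMP, was at 0.70 ± 0.28, Rgs2, a regulator of G proteins, at 0.45 ± 0.22 and Ier3 at 1.00 ± 0.27. With limma-voom and quality weights 8 of the 23 passed, all higher, against 7.75% of all genes.

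Its members differed among themselves. Fos was at 0.19 ± 0.33, Jun at -0.22 ± 0.16, Nr4a3 at -0.01 ± 0.22 and Crem, a CREB family gene induced by cyclic AMP, at 0.11 ± 0.21, and these genes are named after their values were seen. The mean log2 CPM of the 23 genes ranged from 4.93 to 5.42 in EPAT day 5 tumours and from 4.53 to 4.90 in EPAT day 2 tumours. In vehicle tumours it ranged from 4.66 to 5.06 on day 5 and from 4.66 to 4.93 on day 2. The vehicle median was -0.02, and the median of the differences between EPAT and vehicle was 0.29, with 15 of 23 above 0 (51% of all genes) and 5 of 23 at an unadjusted p under 0.05 (5.22%). The EPAT median was 0.45 without the 2 libraries with crossed names and 0.47 without the 2 libraries rich in Gm42418. Within libraries with lung transcripts the day 5 score of the cyclic AMP, CREB and immediate early genes lay 0.53 above the day 2 score (2 and 4 libraries), and within those without them 0.23 above (3 and 1 libraries).

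The promoters of 3 of the 8 genes of this list whose levels separated the days are shown, with that of the clock gene Cry1, which also separated them. The windows of Egr1, Ier3, Dusp1, Pde4b and Rgs2, the other list genes that did so, were not examined. They are the 250 bases before the start site in RefSeq annotation (GRCm38.p6), written 5′ to 3′ on the strand of the gene. Capitals mark TGACG, the core of the cyclic AMP response element, on either strand, the E-box CACGTG and the CArG box of serum response elements. Egr2 is given for start site 3 of 5, at chr10:67537619-67537868 on the plus strand, Nr4a1 at chr15:101266596-101266845 on the plus strand, Junb at chr8:84978749-84978998 on the minus strand and Cry1 at chr10:85185055-85185304 on the minus strand. Among the other Egr2 start sites, the windows of sites 1 and 2 held no TGACG and that of site 1 no CArG box, while those of sites 4 and 5 held 2 TGACG cores and 1 CArG box each.
Egr2: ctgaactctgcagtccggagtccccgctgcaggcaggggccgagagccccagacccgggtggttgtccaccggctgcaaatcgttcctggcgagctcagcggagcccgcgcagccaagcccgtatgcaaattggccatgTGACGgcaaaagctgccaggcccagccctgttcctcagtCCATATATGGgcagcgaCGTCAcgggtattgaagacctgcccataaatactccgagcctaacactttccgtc
Nr4a1: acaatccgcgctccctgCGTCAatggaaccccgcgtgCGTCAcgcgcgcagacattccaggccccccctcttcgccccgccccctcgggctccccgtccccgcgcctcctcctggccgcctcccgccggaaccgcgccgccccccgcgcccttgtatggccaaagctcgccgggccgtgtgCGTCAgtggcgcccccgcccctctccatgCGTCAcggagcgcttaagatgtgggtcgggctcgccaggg
Junb: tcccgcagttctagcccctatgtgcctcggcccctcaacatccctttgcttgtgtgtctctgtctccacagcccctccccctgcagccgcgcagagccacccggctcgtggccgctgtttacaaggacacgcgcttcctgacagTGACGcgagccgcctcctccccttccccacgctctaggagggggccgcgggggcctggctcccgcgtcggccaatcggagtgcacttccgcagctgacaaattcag
Cry1: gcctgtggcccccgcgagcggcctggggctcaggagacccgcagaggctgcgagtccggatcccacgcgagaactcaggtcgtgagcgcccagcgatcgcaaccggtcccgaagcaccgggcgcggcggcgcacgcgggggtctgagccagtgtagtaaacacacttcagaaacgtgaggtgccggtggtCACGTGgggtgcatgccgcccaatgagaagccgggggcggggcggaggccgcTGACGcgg
The Egr2 window held a CArG box and 2 TGACG cores, Nr4a1 held 4 TGACG cores, Junb held 1, and Cry1 held 1 TGACG core and 1 E-box. Among 32851 promoter windows of the same length, 17.8% held TGACG at least once, 3.9% held it 2 or more times and 0.137% held it 4 or more times. The E-box was found in 6.02% and the CArG box in 1.47%. The full element TGACGTCA, found in 1.55% of windows, was in none of these 4, and a match is a description of letters only. Nr4a3, whose level did not separate the days, also held 4 TGACG cores, and the windows of Dbp and Cxcr4, whose levels did separate them, held none of these motifs.

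Genes of the circadian clock were arranged unevenly. Cry1, a repressor of the clock, had 19.6, 16.6, 19.3, 17.1 and 14.9 CPM in EPAT day 5 tumours, against 28, 26.6, 24.3, 23.4 and 25.9 CPM in EPAT day 2 tumours. All 5 day 5 values lay below all 5 day 2 values. The log2 fold change was -0.55 ± 0.14 (adjusted p = 0.447), against 0.38 ± 0.14 in vehicle tumours. The difference between EPAT and vehicle, -0.93 ± 0.20, had an adjusted p of 0.242 with edgeR and 0.0151 with DESeq2. Dbp, a clock output factor, had 21.8, 26.1, 21.7, 20.4 and 23.9 CPM on day 5, against 13.3, 13.8, 14.1, 15.1 and 12 CPM on day 2, without overlap (0.74 ± 0.25; vehicle -0.14 ± 0.24). Nr1d1, which encodes the repressor REV-ERBα, was at 0.55 ± 0.17 with overlap. Of 17 clock genes tested, 12 were above 0 with a median of 0.25, and 2 were higher and 1 lower at an unadjusted p under 0.05, against 3.68% and 3.56% of all genes. Without day 5 replicate 1 the median was 0.13, and without both libraries with crossed names 0.14.

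The drug targets and the enzymes that make and remove prostaglandin E2 overlapped between the days. Ptger4, the gene for EP4, had 30.7, 17.9, 13.1, 19.7 and 29.2 CPM in EPAT day 5 tumours, against 15.5, 15.0, 11.9, 15.5 and 16.2 CPM in EPAT day 2 tumours (0.58 ± 0.31). Day 5 replicates 1 and 5 lay highest, and the lowest day 5 tumour lay inside the day 2 range. Ptger2, the gene for EP2, was low, at 1.04 ± 0.56 CPM on day 5 and 1.56 ± 0.83 CPM on day 2 (SD, n = 5 each), and its fold change was -0.56 ± 0.47 (-0.22 without day 2 replicate 2). The genes of the other prostaglandin E2 receptors were at 0.65 ± 0.34 (Ptger1) and 0.10 ± 0.89 (Ptger3). In vehicle tumours Ptger4 was at 0.48 ± 0.31, so that the difference from vehicle was 0.10 ± 0.44.

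Ptgs2, the inducible cyclooxygenase COX-2, rested on a single tumour. It had 60.4, 74.9, 320, 89.0 and 87.8 CPM on day 5, against 77.9, 42.7, 41.5, 72.7 and 61.9 CPM on day 2, a fold change of 1.09 ± 0.50. Without day 5 replicate 3, the tumour at 320 CPM, it was 0.39. Hpgd, which inactivates prostaglandins, had 6.16, 2.43, 3.96, 3.92 and 4.06 CPM on day 5 and 1.80, 1.43, 0.345, 0.923 and 2.87 CPM on day 2 (1.49 ± 0.67). Its groups overlapped only through day 5 replicate 2 and day 2 replicate 5. The prostacyclin synthase gene Ptgis was at 0.90 ± 0.40 and the prostacyclin receptor gene Ptgir at 0.82 ± 0.38. In all, 14 of 17 tested genes of prostaglandin E2 receptors and metabolism were above 0, with a median of 0.26, 4 higher and 0 lower at an unadjusted p under 0.05 (3.68% and 3.56% of all genes), and 0 with all day 5 values above all day 2 values (1.16%). In vehicle tumours the median was 0.15. Without day 5 replicate 1 the EPAT median was 0.15, and without both libraries with crossed names 0.17.

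Genes of the type I interferon response had fold changes below 0 without exception. All 24 listed genes, the products of which block virus growth or amplify interferon signals, had lower EPAT day 5 than EPAT day 2 means, with a median of -0.66. In vehicle tumours 21 of the 24 were higher on day 5, with a median of 0.24. The difference between EPAT and vehicle was below 0 for all 24, with a median of -0.90, against 49% of all genes, and 7 of them were at an unadjusted p under 0.05, against 5.22%. For EPAT day 5 over day 2, 8 of the 24 were lower at an unadjusted p under 0.05, against 3.56% of all genes, and in 2 the groups did not overlap, against 1.01%. The genes of a list come from the same tumours and are not independent replicates.

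Ifi44, an interferon-induced gene, had 35.6, 68.3, 38.4, 35.3 and 45.5 CPM in EPAT day 5 tumours, against 67.1, 139, 105, 183 and 58.6 CPM in EPAT day 2 tumours (-1.31 ± 0.51). Day 5 replicate 2 lay within the day 2 range. Bst2, which encodes tetherin and holds budding virus at the cell surface, had 26.8, 60.9, 41.6, 25.3 and 27.2 CPM on day 5 and 50.8, 97.2, 70.1, 122 and 62.2 CPM on day 2 (-1.15 ± 0.40). Again only day 5 replicate 2 reached the day 2 range. Oas2, an RNA-sensing enzyme, had 12.2, 13.2, 5.41, 9.96 and 11.6 CPM on day 5 and 17.9, 22.3, 20.8, 16.1 and 13.5 CPM on day 2, without overlap (-0.78 ± 0.34). The mean log2 CPM of the 24 genes ranged from 4.44 to 5.25 in day 5 tumours and from 5.00 to 5.87 in day 2 tumours, so the groups overlapped. In vehicle tumours it averaged 4.92 ± 0.41 on day 5 and 4.64 ± 0.45 on day 2, both below the EPAT day 2 mean of 5.50 ± 0.37 and on either side of the EPAT day 5 mean of 4.85 ± 0.35 (SD, n = 5 each).

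With the lung transcripts as a term in the model, the median of the type I interferon response was -0.58, and without the libraries with crossed names it was -0.76. Within libraries with lung transcripts, the day 5 score lay 0.94 below the day 2 score (2 and 4 libraries), and within those without them 0.73 below (3 and 1 libraries). In this bulk tissue, fewer cells of a type and less RNA per cell cannot be told apart.

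**Figure D2:**
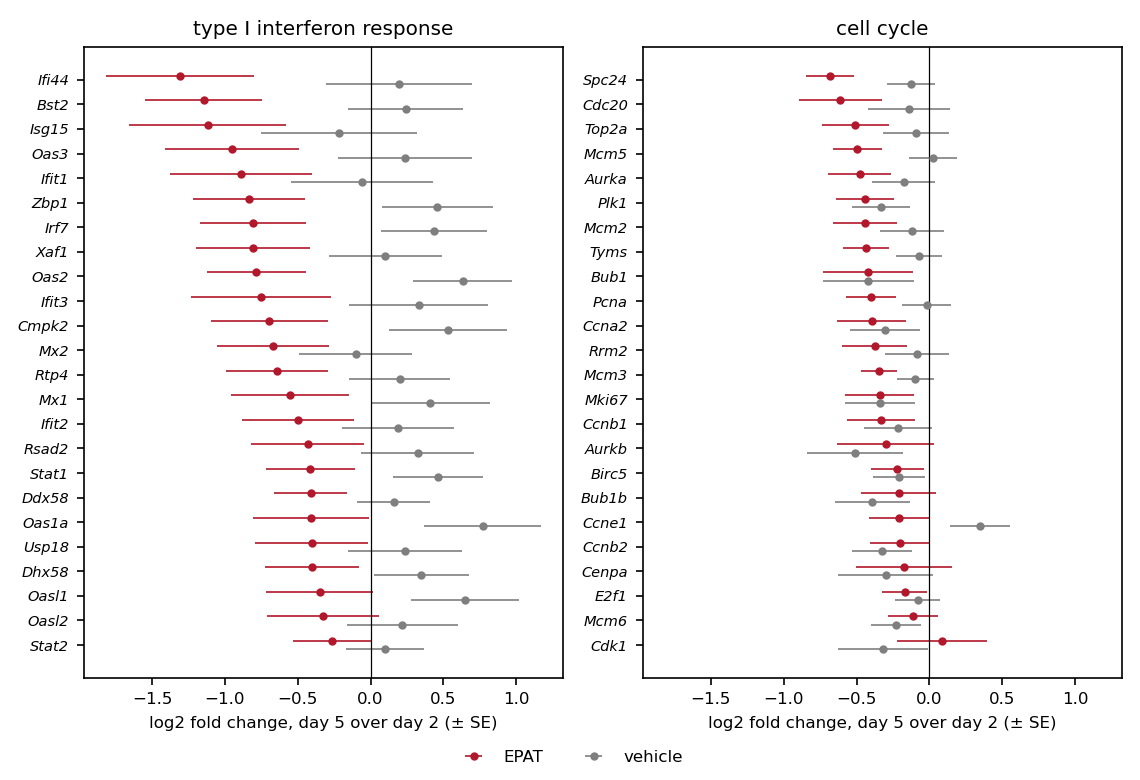
Points give the log2 fold change of day 5 over day 2 for each listed gene, with bars of ± SE, in EPAT tumours (red) and vehicle tumours (grey). All 24 type I interferon genes lay below 0 in EPAT tumours and 21 lay above 0 in vehicle tumours, while 23 of 24 cell cycle genes lay below 0 in EPAT tumours and 22 of 24 in vehicle tumours.

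Interferon-γ targets and antigen presentation genes had smaller differences of the same sign. Of 20 genes of the interferon-gamma response 15 were below 0 (median -0.26). At an unadjusted p under 0.05 there were 0, against 3.68% higher and 3.56% lower over all genes. In vehicle tumours 19 were above 0 (median 0.30). Cxcl9, a chemokine for activated T cells, had 626, 607, 250, 448 and 478 CPM in EPAT day 5 tumours and 621, 1160, 583, 639 and 712 CPM in EPAT day 2 tumours (-0.63 ± 0.44), and its groups overlapped. Cxcl10, a related chemokine, was at 0.21 ± 0.50, and the guanylate-binding protein genes Gbp3 and Gbp7 were at -0.85 ± 0.47 and -0.63 ± 0.37. Of 16 genes of MHC class I presentation 14 were below 0 (median -0.26, and -0.40 without both libraries with crossed names). Among them Erap1, which trims peptides for loading, had 37.1, 39.3, 36.4, 29.4 and 35.9 CPM on day 5, against 49.4, 77.1, 52.3, 53.3 and 42.5 CPM on day 2, without overlap (-0.63 ± 0.26). B2m, the light chain of class I, was at -0.34 ± 0.21.

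Of the MHC class II presentation list 9 of 10 genes were below 0 (median -0.33), against 8 of 10 above 0 in vehicle tumours (median 0.49). H2-DMb1, part of the peptide exchange factor, was at -0.52 ± 0.26 in EPAT tumours and 0.64 ± 0.26 in vehicle tumours, a difference of -1.16 ± 0.37 (adjusted p = 0.942). The invariant chain gene Cd74 was at -0.40 ± 0.33. Day 5 replicate 3 had the lowest mean of the class II genes, 5.86 log2 CPM, against 6.46 to 6.99 in the other day 5 tumours and 6.72 to 7.21 in day 2 tumours. Without the 2 libraries rich in Gm42418, of which it is 1, the class II median was -0.18.

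Genes of inflammatory monocytes, the Ly6C-high cells that enter tumours from blood, mostly had fold changes below 0. Of 12 genes 10 were below 0, with a median of -0.43, 3 of them at an unadjusted p under 0.05, against 3.56% of all genes, and 0 without overlap, against 1.01%. Ccr2, the chemokine receptor of these cells, had 90.2, 69.8, 56.5, 58.7 and 79.3 CPM in EPAT day 5 tumours and 132, 191, 136, 122 and 76.8 CPM in EPAT day 2 tumours (-0.89 ± 0.30). Only day 2 replicate 5, the tumour with the crossed name, fell among the day 5 values. Ms4a4c was at -1.03 ± 0.38 and the orphan receptor gene Gpr141 at -0.93 ± 0.35, both with overlap. In vehicle tumours the list median was 0.49, with Ccr2 at 0.39 ± 0.30. The difference between EPAT and vehicle was -1.28 ± 0.43 for Ccr2 and -1.65 ± 0.49 for Gpr141 (adjusted p = 0.942 each). The list median of that difference was -1.07, with 4 of 12 at an unadjusted p under 0.05, against 5.22% of all genes. Without the 2 libraries with crossed names the EPAT median was -0.70.

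Among other myeloid lists, the macrophage and dendritic cell medians lay near 0. The medians of neutrophils and of mast cells and basophils lay above 0 under every setting run, but moved when single libraries were left out. Of 18 macrophage genes 9 were above and 9 below 0 (median 0.02), a sign that changed under 9 other settings (-0.14 with the lung transcripts as a term, -0.02 without both libraries with crossed names). Trem2, a lipid receptor of tumour macrophages, was at 0.59 ± 0.30, Spp1, which encodes osteopontin, at 0.74 ± 0.43 and the scavenger receptor gene Cd163 at -0.86 ± 0.51. Of 16 dendritic cell genes 11 were below 0 (median -0.12), which was 0.00 without day 5 replicate 3 and -0.35 without both libraries with crossed names. Xcr1, the chemokine receptor of cross-presenting dendritic cells, had 11, 4.14, 3.70, 6.36 and 8.11 CPM on day 5, against 3.88, 3.25, 2.69, 1.85 and 2.00 CPM on day 2, with overlap at day 5 replicate 3 only (1.29 ± 0.56). In vehicle tumours Xcr1 was at 2.04 ± 0.59. Clec9a, which marks the same cells, was at -1.06 ± 0.68 from 0.757 ± 0.63 CPM on day 5 and 1.62 ± 0.667 CPM on day 2. Of 11 neutrophil genes 7 were above 0 (median 0.58), led in level by S100a9 at 52.0 ± 39.5 CPM on day 5 and 19.6 ± 14.5 CPM on day 2 (1.41 ± 0.86). Without both libraries with crossed names the neutrophil median was 0.37. It was 1.39 in vehicle tumours. Of 9 genes of mast cells and basophils 6 were above 0 (median 0.57), which was 1.12 without day 2 replicate 5 and 1.06 without both libraries with crossed names.

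Of 21 T cell genes tested 15 were above 0 (median 0.21). At an unadjusted p under 0.05 there were 0, against 3.68% higher and 3.56% lower over all genes. In 0 of them did the groups separate, against 1.16% higher and 1.01% lower over all genes. At those shares a list of this size holds few such genes. The T cell median was -0.04 without day 5 replicate 1 and -0.02 without both libraries with crossed names. Cd8a had 44.8, 30.2, 12.7, 27.6 and 32 CPM in EPAT day 5 tumours and 9.47, 28.3, 22.3, 23.5 and 16.2 CPM in EPAT day 2 tumours (0.56 ± 0.59). The widest spread was among the day 5 tumours, from replicate 3 at the low end to replicate 1 at the high end. Cd8b1, the partner chain, was at 0.64 ± 0.59. Of 21 genes of cytotoxic effectors and NK cells 9 were above and 12 below 0 (median -0.22), and the median was 0.01 without day 2 replicate 2 and -0.53 without both libraries with crossed names. Gzmb, which encodes granzyme B, had 45.0, 20.2, 21, 17.7 and 29.5 CPM on day 5 and 15.6, 65.8, 29, 35 and 18.1 CPM on day 2 (-0.30 ± 0.54). Ifng was at 0.48 ± 0.63 and the natural killer cell receptor genes Ncr1 and Klre1 at -0.71 ± 0.44 and -0.57 ± 0.39. In vehicle tumours 20 of the 21 effector genes were above 0 (median 0.52), and the difference between EPAT and vehicle was below 0 for 20 of 21 (median -0.69), with 1 at an unadjusted p under 0.05, against 5.22% of all genes.

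All 14 tested genes of checkpoint receptors and regulatory T cells were below 0, with a median of -0.22. Among them 0 were at an unadjusted p under 0.05, against 3.68% higher and 3.56% lower over all genes. Pdcd1 (PD-1) was at -0.12 ± 0.49, and Cd274, the PD-L1 gene, was at -0.03 ± 0.445. Pdcd1lg2, which encodes the other ligand, had 6.57, 4.41, 4.23, 7.07 and 6.39 CPM on day 5 and 8.66, 12.3, 6.76, 7 and 9.05 CPM on day 2 (-0.60 ± 0.39), with overlap. Ctla4 was at -0.35 ± 0.45. Without day 2 replicate 2 the checkpoint median was -0.07. Of 7 genes of B and plasma cells 6 were above 0 (median 0.54), and Cd79b, a chain of the B cell receptor, had 9.86, 4.05, 3.04, 4.56 and 5.54 CPM on day 5, against 1.71, 2.92, 2.90, 2.62 and 2.87 CPM on day 2, without overlap (1.05 ± 0.68). The median of B and plasma cells was 0.31 without day 5 replicate 1, 0.92 without day 2 replicate 1 and 0.24 without both libraries with crossed names. In vehicle tumours it was -1.90, and the scores ranged from 0.37 to 1.39 on day 5 and from -0.21 to 5.51 on day 2.

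Genes of the cell cycle had fold changes below 0 in nearly the whole list. Of 24 genes 23 were below 0, with a median of -0.36, 9 were lower at an unadjusted p under 0.05 against 3.56% of all genes, and 2 did not overlap against 1.01%. Spc24, a kinetochore subunit, had 19.3, 23.9, 26.8, 21.7 and 26.4 CPM in EPAT day 5 tumours, against 32.5, 41.4, 44.1, 42.2 and 29 CPM in EPAT day 2 tumours (-0.68 ± 0.17). Mcm5, a subunit of the replicative helicase, had 45.6, 55.3, 54.1, 47.9 and 54.0 CPM on day 5 and 64.0, 78.4, 77.7, 81.1 and 60.5 CPM on day 2 (-0.49 ± 0.17). Neither gene overlapped between the days. Tyms, the thymidylate synthase, was at -0.44 ± 0.16 and the proliferation marker Mki67 at -0.34 ± 0.24. With limma-voom and quality weights 11 of the 24 passed, all lower, against 7.75% of all genes. In vehicle tumours 22 of 24 were also below 0, with a median of -0.19, and for the difference between EPAT and vehicle the median was -0.11, with 2 of 24 at an unadjusted p under 0.05, against 5.22% of all genes. Mcm5 in vehicle tumours was at 0.03 ± 0.17 and Spc24 at -0.13 ± 0.17.

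Fibroblast and collagen genes had high levels in some of the day 5 tumours. Of 21 genes 20 were above 0, with a median of 0.71, and 6 were higher at an unadjusted p under 0.05 against 3.68% of all genes. In 0 of the 21 did every day 5 library lie above every day 2 library, against 1.16% of all genes. Col1a1, a chain of collagen I, had 5200, 1720, 1530, 3500 and 4370 CPM in EPAT day 5 tumours and 1800, 1490, 1880, 1410 and 1330 CPM in EPAT day 2 tumours (1.05 ± 0.46). Replicates 1, 4 and 5 lay above every day 2 tumour, and replicates 2 and 3 lay within the day 2 range. Col1a2 was at 1.24 ± 0.50, Col5a1 at 0.99 ± 0.37 and Pdgfrb, a growth factor receptor of fibroblasts and pericytes, at 0.77 ± 0.27. The mean log2 CPM of the 21 genes ranged from 6.66 to 7.90 on day 5 and from 6.71 to 6.90 on day 2, so the day 2 tumours were alike and the day 5 tumours spread. The vehicle median was 0.29, with a score of 6.999 ± 0.558 on day 5 and 6.75 ± 0.25 on day 2, and the median difference between EPAT and vehicle was 0.35.

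Matrix and vessel genes also mostly had fold changes above 0. Of 17 genes of matrix remodelling 15 were above 0 (median 0.49), with 3 at an unadjusted p under 0.05 (3.68% of all genes were higher at that p), and the median was 0.31 without day 5 replicate 5 and 0.31 without both libraries with crossed names. Mmp2, a gelatinase named here after its values were seen, had 240, 91.6, 49.9, 232 and 312 CPM on day 5, against 77.0, 70.8, 81.1, 61.0 and 104 CPM on day 2 (1.23 ± 0.49). As with Col1a1, day 5 replicates 1, 4 and 5 lay above every day 2 tumour and replicates 2 and 3 did not. The stromelysin gene Mmp10 was at 1.06 ± 0.37. Of 17 genes of endothelium and angiogenesis 14 were above 0 (median 0.40), with von Willebrand factor gene Vwf at 0.92 ± 0.37 and the junction gene Cdh5 at 0.53 ± 0.26, and of 10 genes of smooth muscle and pericytes 8 were above 0 (median 0.46), with Notch3 at 0.75 ± 0.42. The vehicle medians of these 3 lists were 0.13, 0.30 and 0.43.

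Cytokine and hypoxia genes mostly had fold changes above 0, with some of the highest levels in day 5 replicate 3. Of 16 genes of tumour-promoting inflammation 12 were above 0 (median 0.59), with 4 higher at an unadjusted p under 0.05, against 3.68% of all genes, and 2 without overlap, against 1.16%. Il6 had 5.67, 4.05, 17.8, 3.6 and 6.78 CPM in EPAT day 5 tumours, against 3.52, 1.49, 2.48, 1.15 and 2.70 CPM in EPAT day 2 tumours (1.73 ± 0.58). The groups did not overlap, and without day 5 replicate 3 the value was 1.14. Lif, a cytokine of the same family, had 2.14, 1.80, 4.49, 1.16 and 2.26 CPM on day 5 and 0.270, 0.584, 0.897, 0.616 and 0.870 CPM on day 2, without overlap (1.83 ± 0.72; vehicle 0.22 ± 0.68). The score of the 16 genes ranged from 4.04 to 4.67 on day 5 and from 3.54 to 3.89 on day 2, and the list median was 0.33 without day 5 replicate 1 and 0.31 without both libraries with crossed names. In vehicle tumours 15 of 16 were above 0 (median 0.46), and the difference between EPAT and vehicle had a median of 0.02. Of 12 genes of NF-kappaB feedback 10 were above 0 (median 0.18), with Nfkbiz at 0.25 ± 0.15, and the median was 0.10 without day 5 replicate 1 and 0.12 without both libraries with crossed names.

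Of 22 genes of hypoxia and glycolysis 20 were above 0 (median 0.29), with 4 higher at an unadjusted p under 0.05, against 3.68% of all genes, and 2 without overlap, against 1.16%. Adm, which encodes the vessel-active peptide adrenomedullin, had 9.53, 4.59, 4.89, 11.5 and 9.05 CPM on day 5, against 3.88, 3.51, 4.00, 2.54 and 2.96 CPM on day 2 (1.23 ± 0.51; vehicle -0.24 ± 0.50). Ndrg1, a hypoxia-induced gene, had 98.5, 103, 122, 123 and 112 CPM on day 5 and 76.0, 74.5, 61.7, 85.4 and 87.3 CPM on day 2 (0.54 ± 0.24; vehicle 0.37 ± 0.24). Both separated the days. Bnip3, a mitophagy receptor, was at 1.07 ± 0.41 with 253 CPM in replicate 3, and overlapped at day 5 replicate 5 only. The glycolytic genes that lead in level, Aldoa and Ldha, were at 0.17 ± 0.22 and 0.10 ± 0.23, and they are named after their values were seen. In vehicle tumours the list median was 0.18.

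**Figure D3:**
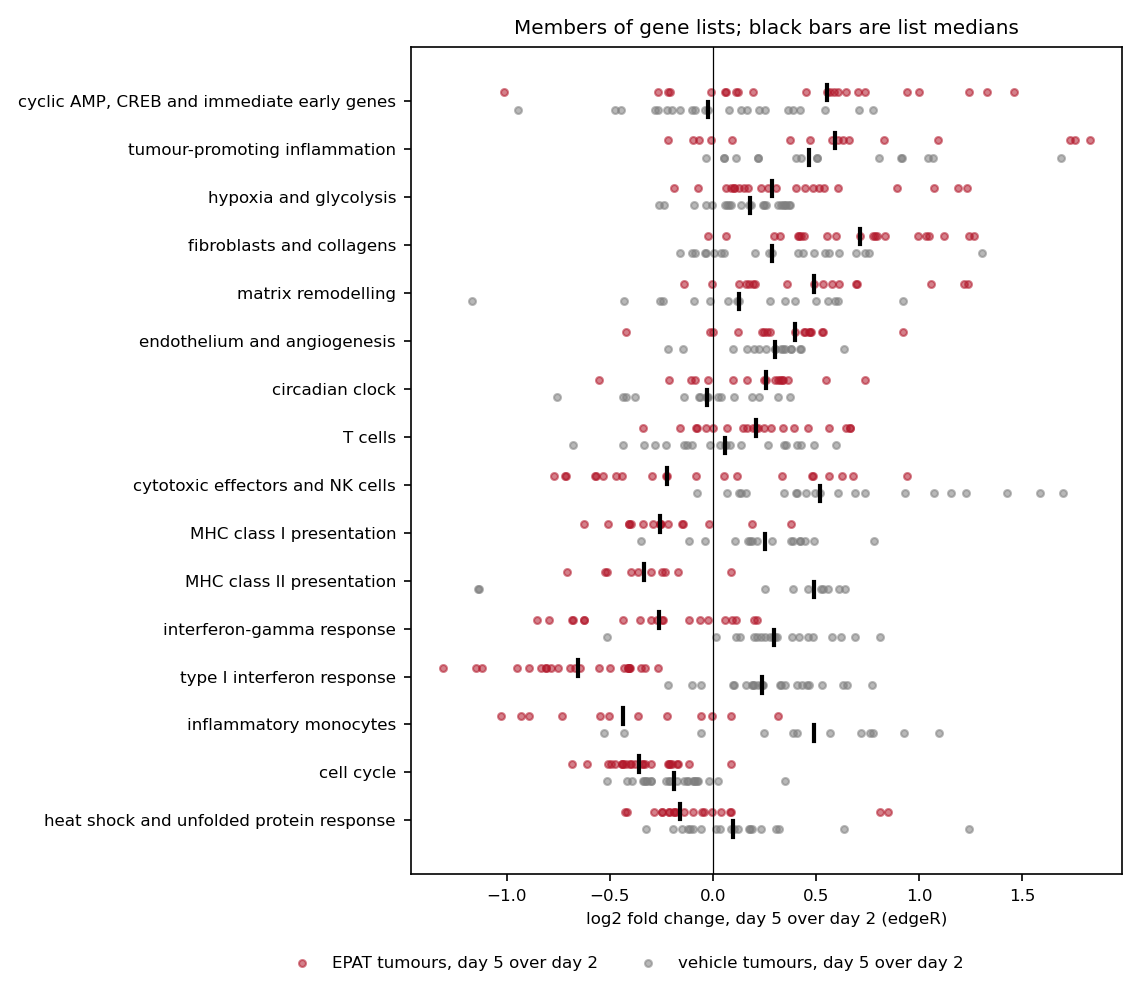
Each row is a gene list and each point a tested member, placed by its log2 fold change of day 5 over day 2 in EPAT tumours (red, upper line of each row) or vehicle tumours (grey, lower line), and black bars are list medians. The EPAT and vehicle medians lay on opposite sides of 0 for the type I interferon response (-0.66 and 0.24), inflammatory monocytes (-0.43 and 0.49) and MHC class II (-0.33 and 0.49), and on the same side for cell cycle (-0.36 and -0.19) and collagens (0.71 and 0.29).

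Stress and hormone lists were mixed. Of 20 genes of heat shock and unfolded protein response 15 were below 0 (median -0.16). The constitutive chaperone gene Hspa8 had 517, 572, 466, 648 and 503 CPM in EPAT day 5 tumours and 577, 769, 741, 708 and 815 CPM in EPAT day 2 tumours (-0.42 ± 0.13), and overlapped at day 2 replicate 1. Hsph1, its nucleotide exchange partner, was at -0.43 ± 0.18, while the stress-induced Hspa1a was at 0.85 ± 0.36 (0.43 without day 5 replicate 4). Of 5 genes of metallothioneins and zinc 4 were above 0 (median 0.44, and 0.28 without both libraries with crossed names), with Mt1 at 0.51 ± 0.25 and the zinc transporter genes Slc30a1 and Slc39a14 at 0.44 ± 0.20 and 0.44 ± 0.21. Of 13 glucocorticoid-induced genes 8 were above 0 (median 0.08, with 0.01 without day 5 replicate 3, 0.18 without day 2 replicate 1 and 0.04 without both libraries with crossed names). Cebpd, a transcription factor, had 121, 97.8, 182, 133 and 114 CPM on day 5, against 69.7, 84.8, 64.9, 83.0 and 92.9 CPM on day 2, without overlap (0.71 ± 0.24), and Fkbp5, a chaperone of the glucocorticoid receptor, was at -0.58 ± 0.20. Of 8 mitochondrially encoded genes 4 were above 0 (median -0.01, and -0.02 without both libraries with crossed names).

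The lists nearest to the tumour cells gave little difference. Of 16 genes of neural crest and dedifferentiation 9 were above 0 (median 0.08, and 0.13 without both libraries with crossed names), with Nt5e, the adenosine-producing ectoenzyme CD73, at 0.70 ± 0.28. Of 15 genes of MAPK pathway feedback, which follow the output of the Braf pathway, 9 were above 0 (median 0.08), with Etv5 at -0.36 ± 0.18, Spry2 at 0.39 ± 0.24 (0.14 without day 5 replicate 3) and Dusp4 at -0.52 ± 0.36. The MAPK median was -0.14 without day 5 replicate 3 and 0.16 without both libraries with crossed names. Mitf, the melanocyte lineage factor that other cells such as mast cells and macrophages also express, had 77.1, 40.8, 34.2, 68.5 and 57.3 CPM on day 5 and 40.4, 37.7, 30.9, 30.5 and 48.0 CPM on day 2 (0.57 ± 0.20), with overlap. Kit was at 0.23 ± 0.32 and Sox10 was at most 0.389 CPM in any EPAT tumour. The melanocyte lineage median over these 3 genes was 0.23, but 0.04 without day 5 replicate 1, 0.52 without day 2 replicate 1 and 0.01 without both libraries with crossed names.

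Genes of neighbouring and other tissues differed between tumours of the same day. The score of 18 skeletal muscle genes was 5.23, 6.80, 4.81, 2.40 and 4.03 log2 CPM in EPAT day 5 tumours, against -0.38, 7.37, 5.75, 5.64 and 5.79 in EPAT day 2 tumours. Day 2 replicate 1 held almost no muscle RNA, with Acta1 at 0.992 CPM against 394 to 1220 CPM in the other day 2 tumours. All 18 genes were below 0 in EPAT tumours (median -0.71, and -0.02 without day 2 replicate 2) and above 0 in vehicle tumours (median 2.86). Vehicle day 2 replicates 1, 3 and 4 had muscle scores of 0.10, -0.39 and -0.64, against 4.31 to 6.77 in vehicle day 5 tumours. Of 12 adipocyte genes 8 were below 0, 5 of them at an unadjusted p under 0.05, against 3.56% of all genes (median -2.05, and -1.33 without day 2 replicate 1), with Adipoq at 1.05 ± 0.58 CPM on day 5 and 11.8 ± 17.3 CPM on day 2. Of 8 keratinocyte genes 7 were below 0 (median -1.04, but 0.41 with only the groups compared and a replicate block), with Krt14 at most 0.264 CPM on day 5 and at most 1.13 CPM on day 2. The vehicle keratinocyte median was -3.28. Of 11 genes of lung epithelium 8 were below 0 (median -0.35, and -0.06 without both libraries with crossed names), and 5 of 8 genes of nerve and Schwann cells (median -0.15, and -0.0026 without day 2 replicate 1). The lung epithelium transcripts went with the S numbers of the library names and may not be neighbouring tissue. All 5 red blood cell genes were above 0 (median 0.85, and 0.15 without day 5 replicate 3), with Hbb-bs at 21.2, 81.1, 287, 127 and 50.9 CPM on day 5 and 87.6, 64.2, 52.0, 60.2 and 50.6 CPM on day 2. With the muscle score as a covariate the EPAT median was 0.47 for the immediate early genes, -0.66 for the type I interferon response and -0.35 for the cell cycle. No such medians were computed for vehicle tumours or for the difference from vehicle. Apart from the muscle and lung terms, the part of these tissues in the gene groups was not tested.

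Several immune lists differed in sign between libraries with and without lung transcripts, a contrast in which 1 side holds a single day 2 tumour, replicate 4. The same contrast divides the EPAT libraries by the S number of their names. The T cells score lay 0.35 lower on day 5 than on day 2 among libraries with lung transcripts (2 and 4 libraries) and 0.38 higher among those without (3 and 1 libraries). The same pair of differences was -0.60 and 0.10 for cytotoxic effectors and NK cells, -0.70 and 0.19 for checkpoint receptors and regulatory T cells, -0.64 and 0.10 for the interferon-gamma response, -0.69 and 0.46 for dendritic cells and -0.37 and 0.37 for macrophages. For the cell cycle it was -0.32 and -0.40, for fibroblasts and collagens 0.29 and 0.86 and for inflammatory monocytes -0.60 and -0.26. For MHC class II presentation it was -0.76 and -0.01. With the lung transcripts as a term in the model, which uses all libraries, the EPAT medians were 0.20 for T cells, -0.22 for cytotoxic effectors and NK cells, -0.17 for checkpoint receptors and regulatory T cells, -0.23 for the interferon-gamma response and -0.20 for dendritic cells. They were -0.30 for the cell cycle, 0.54 for fibroblasts and collagens and -0.30 for inflammatory monocytes. These 8 medians kept the sign they had without that term, and the macrophage median did not.

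The spread among tumours was wider on day 5 for some lists and narrower for others, and these differences were not tested. The SD of the list score over 5 tumours was 0.56 on day 5 and 0.08 on day 2 for fibroblasts and collagens, 0.60 and 0.24 for T cells, 0.64 and 0.33 for cytotoxic effectors and NK cells and 0.45 and 0.18 for macrophages. In the other direction it was 1.62 and 3 for skeletal muscle, 0.55 and 0.97 for adipocytes and 0.07 and 0.25 for keratinocytes. It was 0.40 and 0.57 for mast cells and basophils and 0.29 and 0.36 for inflammatory monocytes. Day 5 replicate 3 had the lowest score of all 10 EPAT tumours for T cells (2.75), cytotoxic effectors and NK cells (2.69), dendritic cells (1.80) and macrophages (6.09). It had the highest for red blood cells (5.22), and it had the highest Ptgs2, Il6 and Lif levels. It was also the shallowest EPAT library, with the largest share on Gm42418. Day 5 replicate 1 had the highest score of T cells (4.39), dendritic cells (3.36), neutrophils (3.27) and tumour-promoting inflammation (4.67).

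Outside the lists, the genes with the smallest p came from several pathways. Lmnb1, which encodes lamin B1 of the nuclear lamina, had 118, 157, 137, 125 and 122 CPM in EPAT day 5 tumours, against 196, 224, 272, 159 and 225 CPM in EPAT day 2 tumours (-0.71 ± 0.16, adjusted p = 0.286; vehicle -0.16 ± 0.16). The ranges met between day 5 replicate 2 and day 2 replicate 4 without overlapping. Smpd3, a neutral sphingomyelinase of ceramide synthesis, had 2.30, 3.42, 2.77, 2.06 and 1.56 CPM on day 5 and 9.65, 14.2, 13.1, 4.62 and 7.92 CPM on day 2 (-2.04 ± 0.47, adjusted p = 0.375). In vehicle tumours Smpd3 was at -0.85 ± 0.46, with anti-PD-1 at -1.82 and with the combination at -1.86. Both genes and Mfsd9, a putative transporter (0.95 ± 0.21), also passed under DESeq2.

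Cxcr4, the receptor for the chemokine Cxcl12, had 39.8, 22.8, 19.4, 45.6 and 24.6 CPM on day 5, against 7.12, 13.4, 13.9, 10.5 and 15.9 CPM on day 2, without overlap (1.32 ± 0.33, adjusted p = 0.447). In vehicle tumours it averaged 18.4 CPM on day 5 and 26 CPM on day 2 (-0.49 ± 0.33), so that the EPAT day 2 tumours lay below the vehicle day 2 mean. The difference between EPAT and vehicle was 1.82 ± 0.47 (adjusted p = 0.891). Dnm3os, the non-coding host transcript of a microRNA cluster in mesenchymal cells, was at 0.85 ± 0.21 and Nedd9, a scaffold of focal adhesions, at 0.58 ± 0.15, both without overlap. Ccdc28a, among the 5 genes with the smallest p for the difference from vehicle, was at 0.38 ± 0.15 in EPAT tumours and -0.50 ± 0.15 in vehicle tumours.

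The difference between days was also set beside those under the other treatments. Between EPAT and vehicle tumours 0 of 15070 genes (0%) passed, with a smallest adjusted p of 0.220, and 786 (5.22%) were at an unadjusted p under 0.05, 358 higher (2.38%) and 428 lower (2.84%). DESeq2 called 4 genes (Egr1 and Egr2 higher, Cry1 and Igfn1 lower) and limma-voom with quality weights called 21. The DESeq2 log2 fold change of Igfn1 was -21.04, an extreme estimate that is not read as a measured change. Against the anti-PD-1 difference between days, 0 genes (0%) passed in edgeR and 206 (1.37%) had an unadjusted p under 0.05, and against the combination the counts were 0 and 1286 (8.53%). DESeq2 called 0 and 9, and limma-voom with quality weights 0 and 4. Anti-PD-1 day 5 replicate 5 carries the leading number 4 of the anti-PD-1 day 2 tumours, and the anti-PD-1 differences were not computed without it. For Egr1 the difference between days was 1.33 in EPAT tumours, 0.31 in anti-PD-1 tumours, 0.16 in combination tumours and -0.45 in vehicle tumours. For Egr2 it was 1.24, 0.35, -0.11 and -0.48 in the same order. The type I interferon median was -0.66, -0.13, 0.23 and 0.24, and the hypoxia and glycolysis median 0.29, 0.31, -0.62 and 0.18. The collagen median was 0.71, 0.83, 0.39 and 0.29, and the cell cycle median -0.36, -0.33, -0.26 and -0.19. Combination tumours also received EPAT, and their immediate early median was -0.16, with 10 of 23 genes above 0, against 51.3% of all genes. Within combination tumours edgeR called 2 genes lower (0.0133%), and within anti-PD-1 tumours 0 (0%). These comparisons share no libraries with the EPAT comparison, while every difference from EPAT shares its 10 libraries.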

How the data were processed

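Bulk tumour RNA of 39 libraries was measured with a QuantSeq 3′ forward kit from 500 ng of RNA, per the labels' protocols. Per the submitters' processing notes, bcl2fastq, STAR, featureCounts and limma were used with builds mm10 and GRCm38. The sources used here do not give versions, annotation or strand setting, so overlapping, antisense and near-identical genes are uncertain. The authors deposited whole-number counts for 39179 genes, 13751 without a count, and a log2 CPM table of 16095 genes, equal to log2(count + 0.5) minus a constant per library (largest deviation 5e-09), which served in 1 alternative. Symbols came from GENCODE on GRCm38 (14912 of 15070 tested genes matched).

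Counts were tested with edgeR 4.0.16 in R 4.3.3: filterByExpr (minimum count 10, total 15), TMM scaling and a robust quasi-likelihood model over all 39 libraries with 8 group means (31 residual degrees of freedom, common biological coefficient of variation 0.323). Adjusted p-values are Benjamini-Hochberg over all genes tested, 2-sided, threshold 0.05. The SE is the fold change over the square root of F. Anti-PD-1 on day 2 had 4 libraries. List scores are mean log2 CPM with a prior count of 2. No 2 EPAT libraries of a day agreed within counting noise (lowest chi-square per gene 14.5 over 20 pairs), so none repeats the counts of another. Each was counted once. The check cannot tell separate mice from separate preparations of 1 tumour. Library depth limits precision mainly for genes of a few CPM. Alternatives were DESeq2 1.42.0, limma 3.58.1, other scalings and filters, covariates, a replicate block and left-out libraries.

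Named genes were the 10 with the smallest p for EPAT (mean log2 CPM of at least 1, no predicted names), the 5 with the smallest p for the difference from vehicle, 3 members per list by p (some are not reported here), and Ptger1, Ptger2, Ptger3, Ptger4, Ptgs2, Pdcd1, Cd274, Cd8a, Ifng, Gzmb, Cxcl9, Cxcl10, Mki67, Col1a1, Egr1 and Cry1. The comparison, its members and the 37 gene lists were chosen with earlier results of these data known. The pipeline was tested on simulated data.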

Additional observations from a re-analysis of the deposited data

Results flagged for a closer look

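In 23 of 328 tests over groups of 5 EPAT tumours, for named genes and list scores, the highest or lowest tumour stood far from the other 4 for the range of its group. Chance gives about 1 in 20 such groups where values are normally distributed. That rate does not hold for genes with almost no counts, such as Lep and Krt15, so the 23 cannot be set against it.

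Day 5 replicate 3 stood apart in 6 genes. It was high in Ptgs2 (320 CPM), Nfkbiz (126 CPM), Lamp3 (1.06 CPM) and Scgb3a2 (1.45 CPM) and low in Cd163 (1.85 CPM) and Ncr1 (0.528 CPM). Day 5 replicate 1 was high in Trbc1 (10.5 CPM), Lep (0.164 CPM, with the others at 0) and the NF-kappaB feedback score (5.79 log2 CPM). Day 5 replicate 2 was low in Mmp10 (1.98 CPM) and was the only day 5 tumour with Krt15 counts (0.0899 CPM).

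Day 2 replicate 1 was low in Cd79b (1.71 CPM), Notch3 (1.35 CPM), Myl1 (0.992 CPM), mt-Cytb (2670 CPM) and the skeletal muscle score (-0.3833 log2 CPM). Day 2 replicate 2 was high in Bcl11b (17.3 CPM). Day 2 replicate 3 was low in Ptger4 (11.9 CPM) and high in the score of nerve and Schwann cells (2.405 log2 CPM). Day 2 replicate 4 was high in Egr1 (156 CPM) and low in the lung epithelium score (-0.3812 log2 CPM). Day 2 replicate 5 was high in Ptgir (6.18 CPM) and Cma1 (26.3 CPM).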

How the results depend on the processing

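The count of genes passing 0.05 depended on the tool. For EPAT it was 0 with edgeR, 6 with DESeq2 and 1168 with limma-voom and quality weights, and 0 with limma-voom without those weights. For vehicle it was 9 with DESeq2, 1 with limma-trend and 3 with only the groups compared. For the difference between EPAT and vehicle it was 4 with DESeq2, 21 with limma-voom and quality weights and 1 with only the groups compared, and for that between EPAT and the combination 9 with DESeq2 and 4 with limma-voom and quality weights. The DESeq2 counts include extreme estimates that are not read as measured changes. Krt5 was at -16.26 for EPAT, -23.72 for vehicle and -23.94 for the difference from the combination, and Igfn1 was at 20.49 for vehicle. The 2 limma-voom runs differed only in the quality weights. Mean weights per group ran from 0.737 (combination day 5) to 1.54 (EPAT day 2), with EPAT day 5 at 1.41. Why the other tools differed was not tested. With a replicate block the counts were 0 for EPAT, 5 for vehicle and 3 for their difference. The block used the second number of the library names, and the labels do not say what that number stands for. Same-numbered deviations from the group mean correlated at -0.319 to 0.0109 over 5 pairs, 0 above 0.1. Pairs with unlike numbers ran from -0.258 to 0.303, and 0 libraries correlated best with their own number. So few pairs cannot show whether the numbers mark a block.

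Leaving out single libraries gave 0 to 1 genes for EPAT and 0 to 1 for the difference from vehicle. The gene was Egr1 without EPAT day 2 replicate 4 in both, and Cry1 for the difference without vehicle day 2 replicate 2. Of 129 named genes, 122 kept their sign under every setting run, as did 27 of 37 list medians. The sign turned for Mb (0.0804 with limma-trend, 0.0853 with the muscle score), Cd274 (0.085 with limma-voom and quality weights, 0.07637 without the libraries rich in Gm42418), Ptger3 (-0.158 without the libraries with crossed names) and, with the lung term, Lamp3 (0.1575) and Scgb3a2 (0.1796). With single libraries left out, values ran through 0 for Pdcd1 (-0.3011 to 0.02753), Gzmb (-0.5678 to 0.127), Cd274 (-0.1356 to 0.1014) and Ptger3 (-0.1979 to 0.9688). With single libraries left out, list medians that moved by over 1.5 times ranged, among others, from -1.78 to 0.06 for lung epithelium, -0.33 to -0.13 for the interferon-gamma response and 0.35 to 0.77 for neutrophils. The ranges were -0.37 to -0.17 for MHC class I presentation, 0.31 to 0.92 for B and plasma cells, 0.04 to 0.52 for the melanocyte lineage, 0.04 to 0.15 for neural crest and dedifferentiation, 0.01 to 0.18 for glucocorticoid-induced genes and -0.23 to -0.0026 for nerve and Schwann cells. The keratinocyte median turned to 0.41 with a replicate block and only the groups compared, and that of the melanocyte lineage was 0 with DESeq2 and with no filter on low counts. Fold changes of Adipoq, Cd74, Cd8a, Ctla4, Cxcl9, Cxcl10, Ifng, Kit, Nfkbiz and Sox10 also moved by over 1.5 times without 1 library. Scaling moved the median of all genes by -0.00413 and 0.0134. Genes of a few CPM are limited by depth.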

Other observations

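Several genes outside the lists also had small p-values between EPAT day 5 and day 2, and they are named after their values were seen. Has1, a hyaluronan synthase, averaged 8.48 ± 5.88 CPM on day 5 and 1.76 ± 0.56 CPM on day 2 (SD, n = 5 each), a log2 fold change of 2.25 ± 0.62. Pcsk5, a proprotein convertase, averaged 57.9 ± 27.6 CPM on day 5 and 15.7 ± 4.15 CPM on day 2 (1.89 ± 0.52), with 1.37 ± 0.51 in vehicle tumours. Mmp11, a stromelysin of stromal cells, averaged 47.0 ± 15.2 CPM on day 5 and 19.7 ± 6.36 CPM on day 2 (1.26 ± 0.35), with -0.66 ± 0.35 in vehicle tumours. Ccn1, a matricellular protein gene, averaged 28.7 ± 9.11 CPM on day 5 and 12.4 ± 4.22 CPM on day 2 (1.21 ± 0.33). Groups did not overlap for any of these 4 genes.

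Genes with lower day 5 values included Pclaf, a partner of the replication clamp, at 127 ± 18.3 CPM on day 5 and 190 ± 31.6 CPM on day 2 (-0.58 ± 0.17, without overlap). Cgas, the cytosolic DNA sensor upstream of type I interferon, averaged 35.1 ± 6.45 CPM on day 5 and 50.9 ± 6.05 CPM on day 2 (-0.54 ± 0.15), with overlap. In vehicle tumours Cgas was at -0.08 ± 0.15. With edgeR, adjusted p was 0.447 for Has1, Pcsk5 and Ccn1, 0.479 for Mmp11, 0.493 for Cgas and 0.569 for Pclaf, so none passed.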
